A study of Mus musculus with 8 samples.

Results

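The Mediator kinase module is the detachable part of Mediator, the complex that links DNA-bound transcription factors to RNA polymerase II. It consists of a cyclin-dependent kinase (Cdk8 or its paralog Cdk19), its partner cyclin C (Ccnc), the activating subunit Med12 or Med12l, and the linker Med13 or Med13l, which ties the module to core Mediator. In each paralog pair a given module holds only a single member. When bound, the module blocks the contact between Mediator and RNA polymerase II, and its kinase phosphorylates transcription factors and other Mediator subunits. In pancreatic islets, cAMP signalling downstream of the GLP-1 receptor acts on transcription through CREB, and Med14 is the scaffold subunit of the same Mediator complex.

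The 7 genes of the module were followed among the 17362 genes of a single nucleus RNA-seq table of mouse islets, and all 7 were present. They were chosen as a family, with measured values in view: Cdk8 was known from an earlier analysis to be far higher in untreated mutant than in untreated wild type beta cells. The values of that contrast are therefore given as a description, and nothing is supported with them.

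Islets came from wild type (WT) mice and from mice with a whole-body knock-in of Med14 S983A, in which a serine of Med14 that protein kinase A can phosphorylate is replaced by alanine. For each genotype there were untreated islets (CON), islets given forskolin (FSK), which activates adenylyl cyclase, and islets given 10 nM of the GLP-1 receptor agonist Exendin-4 (Ex-4) for 16 h. How much FSK was given, and for how long, is not in the labels. Nuclei of all 6 conditions were barcoded by condition and then sequenced together in 8 sublibraries, so the sublibraries are not replicates of a condition. How many mice gave the islets of a condition is not stated in the sources used here.

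The table has 54 columns, with 1 pooled column per condition (6) and cell type (9). No condition has a replicate, so no difference below was tested, and condition cannot be told apart from islet preparation or barcode well. Values are counts per 10000 counts of the column (CP10K), with exact 95% Poisson intervals. Ratios carry exact 95% intervals, and both kinds of interval cover counting error only. A difference was called past the threshold when log2(1 + CP10K) differed by at least 0.58, which corresponds to 1.5-fold for well-expressed genes and to more for genes near 1 CP10K. Column totals were 1915006 to 3094377 counts in beta cells, 269394 to 810127 in alpha cells and 362410 to 631433 in delta cells, and fell to 1522 in the shallowest ductal column. Beta cells held 73.3 to 77.2% of the counts of the WT conditions and 51.4 to 56.4% of those of the mutant conditions. The number of nuclei behind a column is not in the table, so fewer expressing nuclei and less RNA per nucleus cannot be told apart. Of the defining markers in the table, 8 of 8 for beta, 4 of 6 for alpha, 4 of 4 for delta, 1 of 1 for PP, 5 of 5 for endothelial and 3 of 3 for macrophage columns were highest in their own type. For ductal columns this held for 2 of 3 markers, for muscle 1 of 2 and for neurons 0 of 4, so the last name is used only as the label in the table.

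The members differ widely in size, which matters when counts from nuclei, rich in unspliced RNA, are compared. In GENCODE M39 on GRCm39 the genes span 73.5 kb for Cdk8 (chr5:146167823-146241320, plus strand), 144 kb for Cdk19 (chr10:40215560-40359814, plus), 32.3 kb for Ccnc (chr4:21727640-21759922, plus) and 24.9 kb for Med12 (chrX:100317597-100342533, plus). Med12l is the longest at 313 kb (chr3:58913242-59226103, plus), followed by Med13l at 205 kb (chr5:118698347-118903503, plus), and Med13 spans 90.9 kb (chr11:86157859-86248748, minus). Counts are per whole gene, and the sources used here do not say if strand was used. The table also lists genes on the opposite strand within Ccnc (Tstd3), Med12l (P2ry12, P2ry14, Igsf10 and Gm43570) and Med13 (Brip1os).

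The promoters of 6 of the 7 members are in the RefSeq table for GRCm38.p6, Cdk19 being the exception. They are shown for the 3 genes whose levels differed past the threshold in beta cells, because the study concerns cAMP and CREB and the CREB site is a short, readable word. Each sequence covers the 250 bases before the annotated gene start, on the plus strand of GRCm38.p6: chr5:146231000-146231249 for Cdk8, chrX:101273841-101274090 for Med12 and chr3:59006728-59006977 for Med12l. Capitals mark a CREB half-site (TGACG, or CGTCA on the other strand).
Cdk8: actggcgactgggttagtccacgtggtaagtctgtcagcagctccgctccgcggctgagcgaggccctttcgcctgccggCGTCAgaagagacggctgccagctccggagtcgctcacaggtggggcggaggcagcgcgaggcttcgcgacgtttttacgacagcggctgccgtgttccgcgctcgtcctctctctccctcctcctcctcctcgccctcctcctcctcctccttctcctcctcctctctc
Med12: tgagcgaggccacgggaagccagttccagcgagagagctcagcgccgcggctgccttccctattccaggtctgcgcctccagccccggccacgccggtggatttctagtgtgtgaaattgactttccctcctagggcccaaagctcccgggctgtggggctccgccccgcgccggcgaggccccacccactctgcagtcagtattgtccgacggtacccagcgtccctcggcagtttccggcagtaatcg
Med12l: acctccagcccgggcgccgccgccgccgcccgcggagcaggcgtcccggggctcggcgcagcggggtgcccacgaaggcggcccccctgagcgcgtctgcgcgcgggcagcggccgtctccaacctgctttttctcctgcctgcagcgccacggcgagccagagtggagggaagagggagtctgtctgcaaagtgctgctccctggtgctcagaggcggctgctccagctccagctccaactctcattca
The full palindromic site TGACGTCA was searched from 250 bases before to 50 after the start, and 0 of the 6 members held it, against 588 of 32851 promoters (1.79%). The half-site, which is part of the full site, was present in Cdk8, starting 170 bases before the gene start, and in Ccnc, 20 bases into the gene. It was in 6837 of all promoters (20.8%). A word match is a description and not a binding site. The 6 promoters were rich in G and C, from 60% in Ccnc to 84.7% in Med13l, with 66.7% in Cdk8, 66.3% in Med12 and 69.0% in Med12l, where the median promoter held 52.7%. They also held 24 to 61 CpG dinucleotides, against a median of 7.

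Cdk8, the kinase itself, was lowest in untreated WT and highest in untreated mutant beta cells, the contrast by which it was chosen. Its values followed those of ribosomal RNA over the cell types of some conditions, as given further on, and whether reads of ribosomal RNA were counted at the Cdk8 locus was not tested. Every Cdk8 level, rank and share of a pair stands under that limit. In WT beta cells Cdk8 stood at 19.1 CP10K (18.6 to 19.6) in CON, 38.0 (37.3 to 38.7) with FSK and 44.2 (43.4 to 44.9) with Ex-4. In Med14 S983A beta cells it stood at 86.9 (85.6 to 88.2) in CON, 29.97 (29.3 to 30.7) with FSK and 75.7 (74.5 to 76.9) with Ex-4. Both agonists thus went with higher Cdk8 in WT beta cells and lower Cdk8 in mutant beta cells. The intervals of all 15 pairs of conditions were apart.

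Alpha cells held 21.2, 73.0 and 62.6 CP10K of Cdk8 in WT CON, FSK and Ex-4, and 105, 54.9 and 87.7 in the same mutant conditions. In delta cells the WT values were 20.6, 29.2 and 45.9 CP10K and the mutant values 89.1, 28.1 and 65.04. WT CON was lowest and mutant CON highest in all 3 endocrine types, with mutant FSK second lowest. The types differed most under FSK: in WT cells FSK went with more Cdk8 than Ex-4 did in alpha cells and with less in beta and delta cells. In alpha cells all 15 pairs of intervals were apart, and in delta cells 14, the pair left being WT FSK and mutant FSK.

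**Figure D1:**
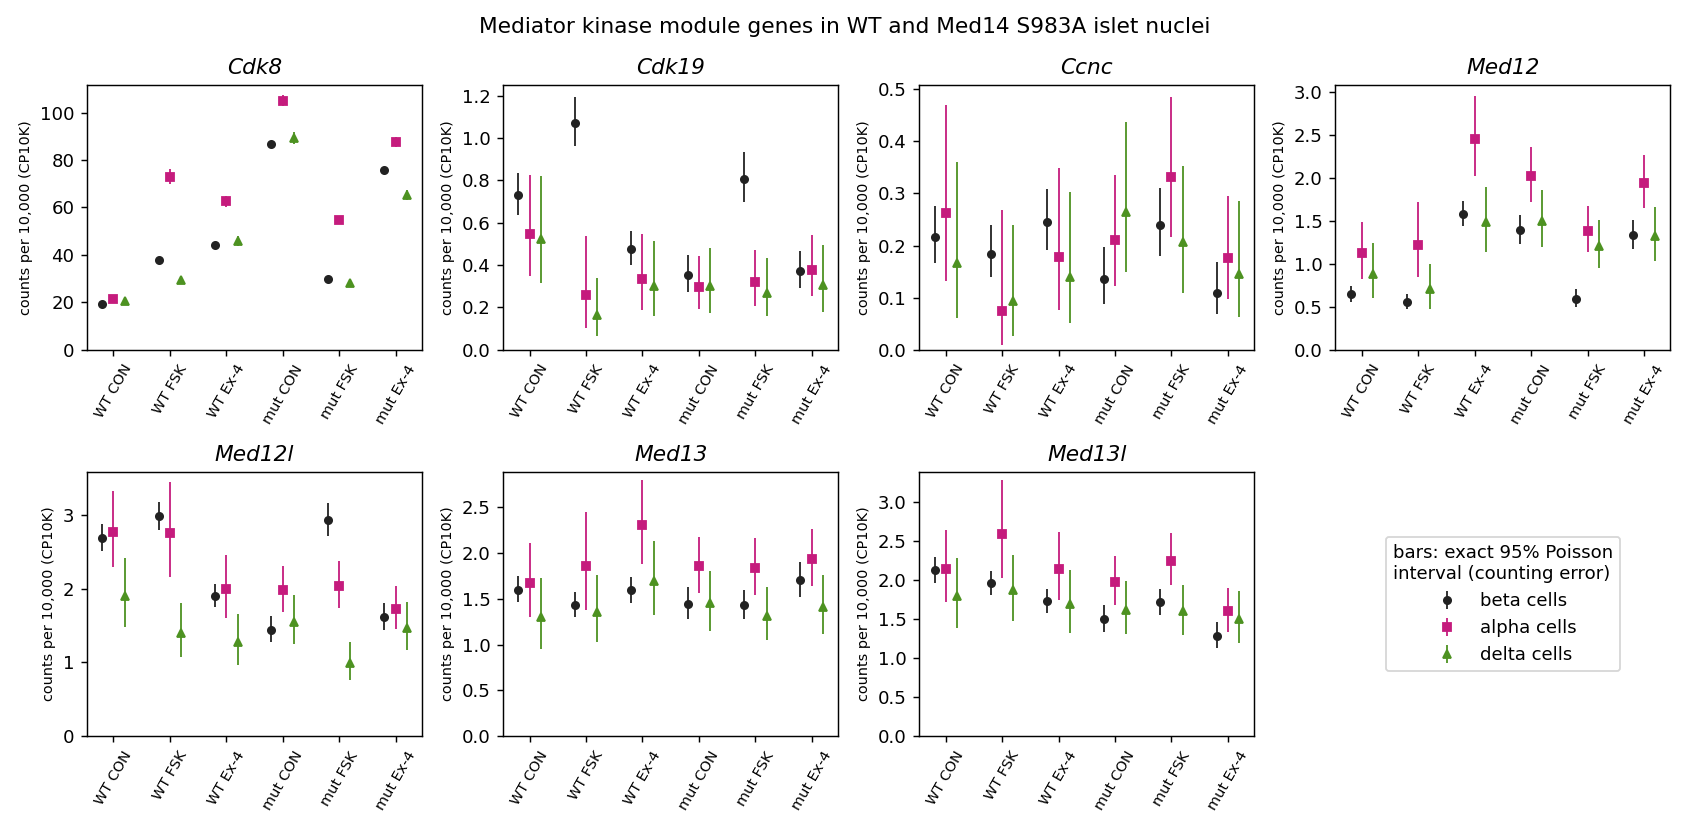
Level of each kinase module gene (vertical axis, CP10K) in the 6 conditions (horizontal axis) of beta, alpha and delta cells, where mut stands for Med14 S983A and bars are exact 95% Poisson intervals. Cdk8 in beta cells runs from 19.1 in WT CON to 86.9 in mutant CON, while the highest value of any other member is 2.98 CP10K, Med12l in WT FSK beta cells.

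Within WT, Cdk8 with Ex-4 was 2.31 times the CON level in beta cells (interval 2.24 to 2.39), 2.95 times in alpha cells (2.74 to 3.19) and 2.23 times in delta cells (2.05 to 2.43), each past the threshold. FSK against CON gave 1.99 times in beta cells (1.93 to 2.05), 3.44 times in alpha cells (3.18 to 3.73) and 1.42 times in delta cells (1.30 to 1.56), the last short of the threshold. Within the mutant the sign was the opposite, which follows for any treated value between the lowest column, WT CON, and the highest, mutant CON. FSK against CON gave 0.345 times in beta, 0.523 in alpha and 0.315 in delta cells, all past the threshold, and Ex-4 gave 0.871, 0.835 and 0.730 times, none past it. In each genotype the FSK and Ex-4 contrasts share the same CON column, so a high or low CON column would move both.

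The gap between genotypes differed with the treatment. Without treatment, mutant cells held 4.55 times the WT level of Cdk8 in beta, 4.95 times in alpha and 4.34 times in delta cells. With Ex-4 the ratio was 1.71 (1.67 to 1.75) in beta, 1.3999 (1.34 to 1.46) in alpha and 1.42 (1.34 to 1.497) in delta cells, past the threshold in beta cells alone. With FSK the mutant was lower, at 0.789 times the WT level in beta (0.766 to 0.813) and 0.752 in alpha cells (0.712 to 0.793), while in delta cells the interval of 0.894 to 1.03 around 0.962 included 1.

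The untreated samples were in the same order in the other cell types. Mutant CON exceeded WT CON in Cdk8 in 9 of 9 cell types, by 3.31 to 11.3 times, with the interval above 1 in all 9. This is the contrast by which Cdk8 was chosen. The 9 types come from the same untreated islets of each genotype, so they are not separate replicates of it. Endothelial cells went from 19.3 to 68.5 CP10K, PP cells from 17.8 to 59.0, macrophages from 19.2 to 106 and muscle cells from 29.97 to 116. The columns named neurons went from 11.1 to 126 on 10 counts in WT CON, and ductal columns from 32.9 to 142 on 5 counts. The last pair shows how little the smallest columns can carry: ductal WT Ex-4 rested on 1 count, 5.16 CP10K with an interval of 0.131 to 28.7.

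Treatments also went in the same direction in most types, which again share the islets of a condition. Mutant FSK was below mutant CON in 9 of 9 types (0.271 to 0.523 times, all 9 intervals below 1). Mutant Ex-4 was below mutant CON with the interval below 1 in 8 of 9 types, at 0.638 times in the lowest, and the endothelial columns were level at 68.5 CP10K in both. In WT cells Ex-4 was above CON in 8 of 9 types with 7 intervals above 1, the exception being ductal cells, and FSK was above CON in 7 of 9 with 6 intervals above 1. Averaged over the 6 conditions with equal weight, Cdk8 was 67.4 CP10K in alpha, 61.3 in muscle, 55.5 in ductal, 52.5 in neuron-labelled, 51.6 in macrophage, 49.0 in beta, 46.3 in delta, 43.8 in endothelial and 31.4 in PP columns. The range over conditions within each type was wider than the steps of that order, so no neighbours in it differ beyond their spread. Compared condition by condition, alpha cells exceeded beta cells in 6 of 6 and PP cells lay below them in 6 of 6.

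**Figure D2:**
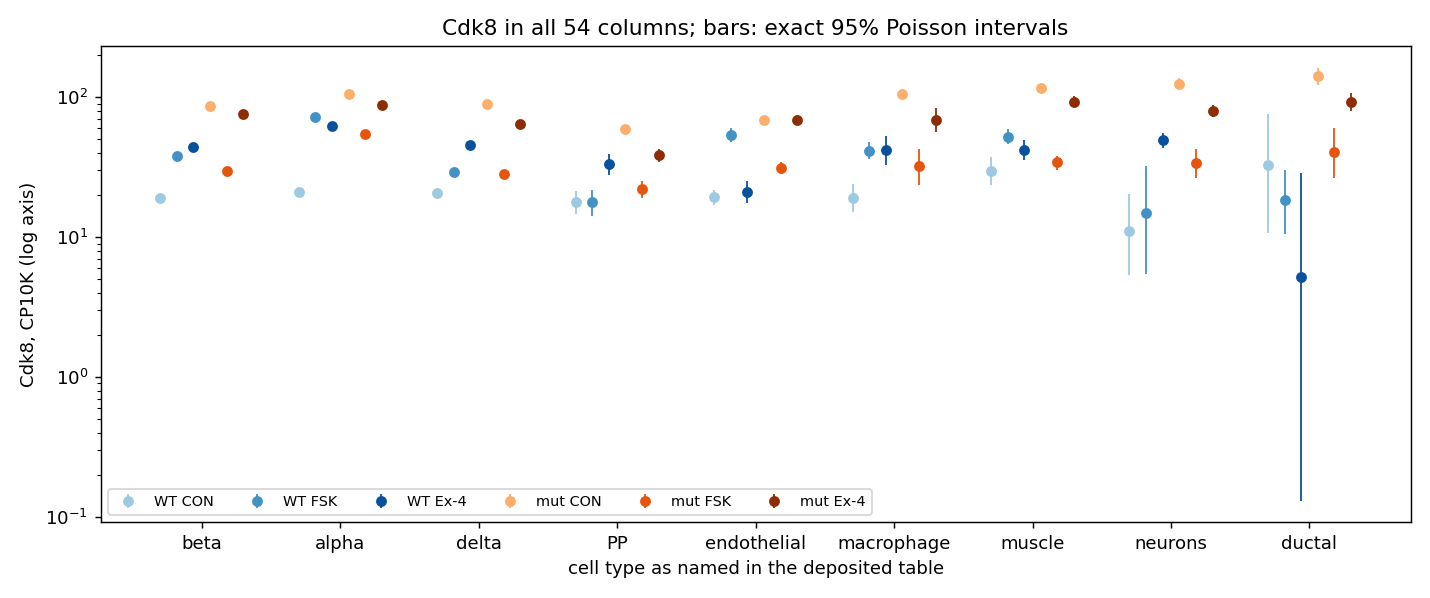
Cdk8 (vertical axis, CP10K on a log scale) in all 54 columns, grouped by cell type (horizontal axis) and coloured by condition, where mut stands for Med14 S983A and bars are exact 95% Poisson intervals. In each of the 9 cell types the mutant CON point lies above the WT CON point, and the bars of neuron-labelled and ductal WT columns are wide.

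All 7 members passed the filter on low values in beta, alpha and delta cells, the filter keeping 10093, 9487 and 9256 genes. In beta cells, Ex-4 in WT put 2 members past the threshold, both higher (Cdk8 and Med12), and 0 lower, where 0.941% of kept genes were higher and 2.18% lower. FSK in WT put 1 member higher (Cdk8) and 0 lower, against 1.52% and 0.723%. Untreated mutant against untreated WT had 1 member higher (Cdk8) and 1 lower (Med12l), beside 1.48% and 3.86% of genes, a contrast whose Cdk8 value chose the members. Ex-4 in the mutant put 0 members past the threshold, where 0.0396% of genes were higher and 0.00991% lower. FSK in the mutant put 1 member higher (Med12l) and 2 lower (Cdk8 and Med12), against 5.12% and 2.70%. Each treatment contrast reuses an untreated column by which Cdk8 was chosen. The Cdk8 calls in them are therefore not independent of that choice and are given as a description. The balance over all kept genes depended on the scale. For Ex-4 in WT it was 95 higher and 220 lower, but 1549 and 824 with a pseudocount of 0.1, 144 and 173 with columns rescaled to leave out ribosomal RNA linked and mitochondrial counts, and 94 and 60 once the trend on gene length was removed. For FSK in WT 153 and 73 became 517 and 1389 with that pseudocount. For FSK in the mutant 517 and 273 became 1696 and 2214 with it, 441 and 383 after rescaling and 333 and 279 without the trend.

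The partners went both ways, in untreated mutant against WT beta cells from -0.59 (Med12l) to 0.54 (Med12). Over the 6 partners in beta cells the median log2 difference was -0.10 for Ex-4 in WT, -0.06 for FSK in WT, -0.21 for untreated mutant against WT, -0.01 for Ex-4 in the mutant and 0.12 for FSK in the mutant. The medians over all kept genes were 0.03, -0.055, 0.00, -0.01 and -0.02. Alpha cells had 2, 1, 1, 0 and 1 members past the threshold in the same 5 contrasts, where 5.72%, 2.51%, 7.38%, 0.0422% and 4.02% of kept genes were past it in either direction. Delta cells had 1, 0, 1, 0 and 1, against 5.06%, 4.79%, 7.05%, 0.0432% and 7.91%. Cdk8 was the member in each of these cases, with Med12 as the other in alpha cells under Ex-4. The limit on the Cdk8 calls holds here too, since these cell types come from the same islets.

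Cdk19, the paralog that can replace Cdk8 in the module, was lower in mutant CON than in WT CON beta cells, and higher with FSK than without treatment in both genotypes, at far lower counts than Cdk8. Its WT values were 0.730 CP10K without treatment, 1.07 with FSK and 0.476 with Ex-4, and its mutant values 0.353, 0.807 and 0.371 in the same order, on 68 to 332 counts. The 2 FSK columns were the highest, and 11 of 15 pairs of intervals were apart. Mutant CON was 0.484 times WT CON (0.363 to 0.637), WT FSK was 1.47 times WT CON (1.24 to 1.75) and mutant FSK was 2.29 times mutant CON (1.72 to 3.06). None of these passed the threshold, since log2(1 + CP10K) compresses differences near and below 1 CP10K. With the trend on gene length removed, the log2 difference was -0.15 instead of -0.35 for untreated mutant against WT. It was 0.25 instead of 0.42 for FSK in the mutant and 0.27 instead of 0.26 for FSK in WT. In alpha and delta cells Cdk19 lay between 0.164 and 0.549 CP10K on 7 to 30 counts a column, and 0 of 15 pairs of intervals were apart in either. Unlike in beta cells, WT FSK was the lowest column and WT CON the highest in both types. In delta cells WT FSK was 0.312 times WT CON, at 0.164 and 0.524 CP10K. Over the 9 cell types the interval of this ratio was above 1 in 1 and below 1 in 1.

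By cell type Cdk19 and Cdk8 had different orders. Endothelial cells held more Cdk19 than beta cells in 6 of 6 conditions, by 1.89 to 5.51 times with all 6 intervals above 1, at 1.38 to 3.22 CP10K. Ductal columns averaged 4.20 CP10K over the 6 conditions, the highest of the 9 types, on 22 counts in all. For Cdk8 the endothelial columns were above beta cells in 3 conditions and below in 3. As a share of the counts of the pair, Cdk8 made up 96.3% in WT CON beta cells (exact binomial interval 95.8 to 96.8), 97.3% with FSK, 98.9% with Ex-4, and 99.6%, 97.4% and 99.5% in mutant CON, FSK and Ex-4. In endothelial cells the share was 86.4 to 98.0%, below that of beta cells in each of the 6 conditions.

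Ccnc, the cyclin that both kinases need, was the least counted member in beta cells. It measured 0.216, 0.184 and 0.245 CP10K in WT CON, FSK and Ex-4 and 0.135, 0.239 and 0.110 in the mutant, on 21 to 73 counts. No contrast passed the threshold, and only 2 of 15 pairs of intervals were apart in beta cells and 0 in alpha and delta cells. The interval of mutant CON against WT CON, 0.381 to 1.00 around 0.626, reached 1.

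Med12, which activates the kinase, and its paralog Med12l differed in opposite directions in each beta cell contrast in which either passed the threshold. Med12 measured 0.644, 0.556 and 1.59 CP10K in WT CON, FSK and Ex-4 beta cells with 1.397, 0.595 and 1.34 in the same mutant conditions. For Med12l the WT values were 2.69, 2.98 and 1.90 CP10K and the mutant values 1.44, 2.93 and 1.62. The same 3 columns (Ex-4 in both genotypes and the untreated mutant) were thus high in Med12 and low in Med12l, with no overlap with the other 3 columns in either gene. Unlike Cdk8, Med12 was not higher with FSK in WT beta cells (0.863 times, interval 0.699 to 1.07).

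Ex-4 in WT beta cells went with 2.46 times the Med12 of CON (2.08 to 2.93, log2 difference 0.65, past the threshold) and 0.706 times the Med12l (0.633 to 0.787, -0.35, not past it). In untreated mutant against WT beta cells Med12 was 2.17 times as high (0.54, just short of the threshold) and Med12l 0.537 times (-0.59, just past it). FSK in mutant beta cells went with 0.426 times the Med12 (-0.59, just past) and 2.03 times the Med12l (0.69, past). The calls near the threshold did not hold under each setting. Setting the median of kept genes to 0 ended the Med12 call with FSK in the mutant (-0.56), and removing the trend on gene length ended both calls there (-0.53 for Med12 and 0.41 for Med12l). The Med12l call in untreated mutant against WT ended when columns were rescaled with ribosomal RNA linked genes left out (-0.53), which put Med12 past the threshold (0.63), and also without the trend (-0.25). In alpha cells Med12 with Ex-4 in WT was 2.19 times CON (1.55 to 3.16, 0.71, past the threshold), and in delta cells 1.68 times (1.08 to 2.65, not past it).

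The share of Med12 in the pair puts both genes into 1 value that does not depend on the column total. It does depend on trends with gene length, since Med12 spans 24.9 kb and Med12l 313 kb. In untreated mutant against WT beta cells that trend was 0.03 at Med12 and -0.35 at Med12l. With FSK in the mutant it was -0.06 and 0.28. In beta cells the share was 19.3% in WT CON (exact interval 16.9 to 21.9), 15.7% with FSK and 45.5% with Ex-4, and 49.2%, 16.9% and 45.2% in mutant CON, FSK and Ex-4. The columns fell into a low group at 15.7 to 19.3% and a high group at 45.2 to 49.2%. Alpha cells followed the same division in WT, at 28.8, 30.8 and 55.2%. Their mutant FSK share was 40.5%, below 50.6% in mutant CON and 52.9% in mutant Ex-4 but above the low WT columns. In delta cells mutant FSK was not low at all: the WT shares were 31.7, 33.3 and 53.8% and the mutant shares 49.1, 54.7 and 47.4% in CON, FSK and Ex-4.

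**Figure D3:**
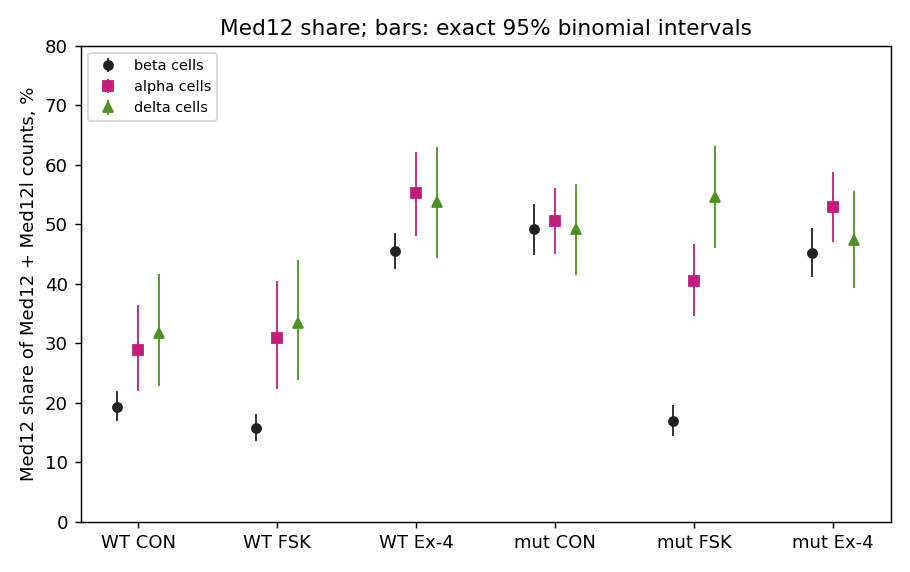
Med12 counts as a percentage of Med12 plus Med12l counts (vertical axis) in the 6 conditions (horizontal axis) of beta, alpha and delta cells, where mut stands for Med14 S983A and bars are exact 95% binomial intervals. Mutant FSK lies at 16.9% in beta, 40.5% in alpha and 54.7% in delta cells, the column in which the 3 types differ most.

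Across cell types Med12 was higher in alpha than in beta cells in 6 of 6 conditions (1.45 to 2.33 times, all 6 intervals above 1). Med12l was lower in endothelial than in beta cells in 6 of 6 (0.0540 to 0.273 times, all 6 intervals below 1), at 0.161 to 0.735 CP10K. Averaged over the 6 conditions, Med12l was highest in beta (2.26 CP10K), alpha (2.21) and PP columns (2.19), which differed by far less than their ranges over conditions. In macrophages it rested on 5 counts in all.

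Med13 had the narrowest range over conditions of the 7 members in beta and alpha cells, and Med13l in delta cells. In beta cells it measured 1.60, 1.43 and 1.59 CP10K in WT CON, FSK and Ex-4 and 1.44, 1.43 and 1.70 in the mutant, and 0 of 15 pairs of intervals were apart in beta, alpha or delta cells. Untreated mutant beta cells held 0.902 times the WT level (0.776 to 1.05).

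Med13l, the paralog of Med13, was lower in mutant than in WT beta cells of the same treatment. In beta cells it measured 2.13, 1.958 and 1.73 CP10K in WT CON, FSK and Ex-4, against 1.501, 1.71 and 1.29 in the mutant. Each mutant value lay below the WT value of the same treatment, and no difference passed the threshold. The ratios were 0.705 in CON (0.612 to 0.812), 0.876 with FSK (0.769 to 0.996) and 0.745 with Ex-4 (0.638 to 0.869). In alpha cells the ratios were 0.920 in CON (0.706 to 1.20), 0.867 with FSK (0.654 to 1.16) and 0.745 with Ex-4 (0.567 to 0.980), and in delta cells all 3 intervals included 1. With the trend on gene length removed, the untreated difference was -0.06 instead of -0.32 in beta cells, 0.20 instead of -0.08 in alpha cells and 0.18 instead of -0.09 in delta cells, so its sign turned in both of the latter. With Ex-4 the mutant was lower in 9 of 9 cell types, with 3 intervals below 1. Med13 made up 42.2 to 56.9% of the pair in beta cells. PP and muscle columns held more Med13l than beta cells in 6 of 6 conditions, with 4 of 6 intervals above 1 in each.

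Summed over the 6 partners, the module without Cdk8 ran from 6.27 to 8.18 CP10K in beta cells. The sum was 8.01 CP10K in WT CON, 8.18 with FSK and 7.53 with Ex-4, and 6.27, 7.71 and 6.43 in mutant CON, FSK and Ex-4. The untreated mutant was at 0.784 times the untreated WT (0.731 to 0.840), opposite in direction to Cdk8, and mutant FSK at 1.23 times mutant CON (1.14 to 1.32). In alpha cells the untreated ratio was 0.979 (0.860 to 1.12) and in delta cells 1.02 (0.864 to 1.20). Among the parts of the beta cell sum, removing the trend on gene length put Med12l at -0.25 instead of -0.59 and Med13l at -0.06 instead of -0.32. Ribosomal RNA linked and mitochondrial genes took 11.05% of the counts of mutant CON and 3.26% of those of WT CON beta cells. The sum is given without adjustment for either. Cdk8 made up 70.5% of all counts of the module in WT CON beta cells and 93.3% in mutant CON beta cells.

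Per kilobase, too, Cdk8 stood apart from its partners. Per kb of gene span it exceeded each of the 6 partners in 18 of 18 beta, alpha and delta columns. In WT CON beta cells its level per kb of span was 10.1 times that of Med12, 14.8 times Med13, 25.05 times Med13l, 30.2 times Med12l, 38.9 times Ccnc and 51.3 times Cdk19. Over the 18 columns the smallest ratio per kb of span was 6.42, to Med12. Per kb of merged exons the smallest ratio in any of these columns was 6.68, to Med12l. Among 9835 genes of the beta columns with a known span, Cdk8 ranked between 20 and 43 per kb of span. In contrast, Med12 ranked 574 to 1522, Med13 2390 to 3381, Med13l 4157 to 6590, Med12l 4169 to 7484, Cdk19 5116 to 8653 and Ccnc 6006 to 8125. The order of the partners depends on the scale, since Med12 was second per kb of span and in place 4 per kb of exon, where Med12l was second.

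In beta cells the conditions with the most Cdk8 were also those with the most ribosomal RNA. Rn18s-rs5, a copy of the 18S ribosomal RNA, is a transcript of the ribosome and not a messenger RNA. In beta cells Rn18s-rs5 measured 212, 175 and 567 CP10K in WT CON, FSK and Ex-4 and 747, 151 and 914 in mutant CON, FSK and Ex-4. Its 3 highest columns, those with Ex-4 and that of the untreated mutant, were also the 3 highest for Cdk8 and for Med12. Cdk8 per 100 Rn18s-rs5 counts was 8.99, 21.8 and 7.79 for the WT columns, against 11.6, 19.8 and 8.28 for the mutant columns. The ratio was highest in the FSK columns of both genotypes and lowest in the Ex-4 columns of both, so it was set apart by treatment more than by genotype.

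Within a condition the ratio differed little between beta, alpha and delta cells. In WT it ran from 8.90 to 10.04 with CON, from 21.7 to 23.4 with FSK and from 7.79 to 8.47 with Ex-4, and it ran from 11.6 to 13.002 in mutant CON, 19.8 to 20.4 in mutant FSK and 7.32 to 8.31 in mutant Ex-4. The highest was at most 1.13 times the lowest, whereas Cdk8 itself spanned 2.499 times in WT FSK and 1.95 times in mutant FSK. In the other conditions Cdk8 spanned less, 1.42 times in WT Ex-4, 1.35 in mutant Ex-4 and 1.21 in mutant CON, and in WT CON Cdk8 (1.11 times) was no less steady than the ratio (1.13 times). Over all 9 cell types the ratio spanned 1.31 times in mutant FSK to 4.70 times in WT Ex-4. Among 250 genes with at least 100 counts in each of the 18 columns, Cdk8 had the steadiest log2 ratio to Rn18s-rs5 over the 3 cell types of a condition, with a mean SD of 0.0723. Lars2 (0.0794), Gphn (0.0815), Cmss1 (0.0916) and Camk1d (0.106) came next, and the median gene had 0.427. This comparison was chosen after the values were seen. Pearson's r between Cdk8 and Rn18s-rs5 on the deposited log values was 0.82 over 18 columns and 0.78 over 54, points that share sublibraries, conditions and column totals.

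**Figure D4:**
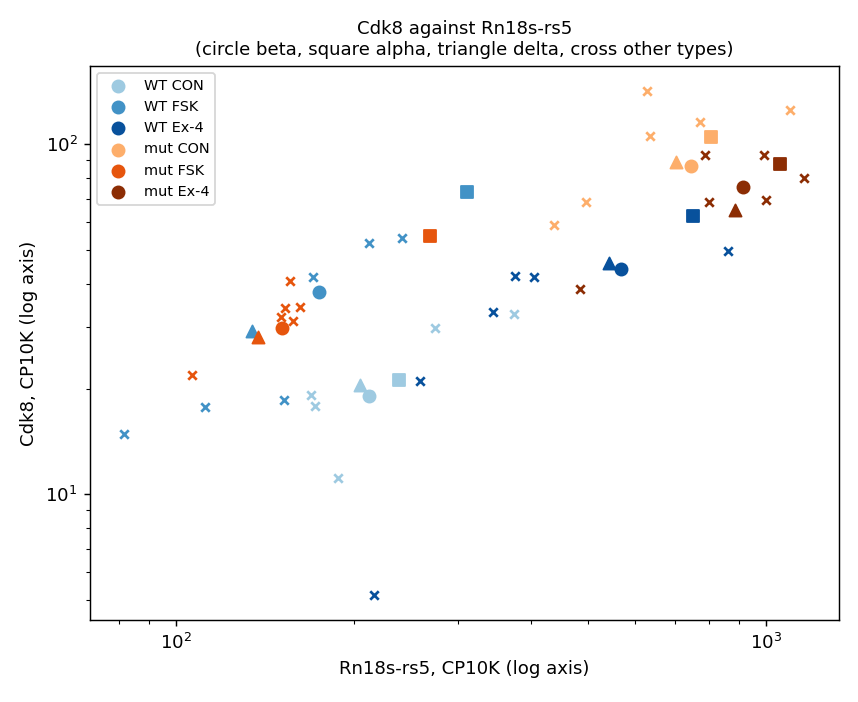
Cdk8 against Rn18s-rs5 (both axes CP10K on log scales) in the 54 columns, coloured by condition, with circles for beta, squares for alpha and triangles for delta cells, crosses for the other cell types, and mut for Med14 S983A. In beta, alpha and delta cells the FSK points of both genotypes lie at 19.8 to 23.4 Cdk8 counts per 100 Rn18s-rs5 counts. The Ex-4 points of these types lie lower, at 7.32 to 8.47. The WT FSK point of PP cells lies at 15.8.

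A list of genes linked to ribosomal RNA or mitochondria was followed beside Cdk8. It holds 13 genes of the table, 9 of them kept in beta cells. The list was drawn up because its genes moved in untreated mutant against WT in an earlier analysis of these data. Its counts in that contrast were therefore set by the choice, and each treatment contrast shares an untreated column with it. With Ex-4 in WT 6 were higher (Rn18s-rs5, Gm19951, Cmss1, Filip1l, Lars2 and Camk1d) and 0 lower, and the same counts held for untreated mutant against WT. Of all kept genes 0.941% were higher and 2.18% lower in the first contrast, and 1.48% and 3.86% in the second. With FSK in the mutant 0 were higher and 8 lower, beside 5.12% and 2.70% of kept genes. AY036118, also kept, went the other way short of the threshold. Its log2 difference was -0.21 with Ex-4 in WT, -0.41 in untreated mutant against WT and 0.34 with FSK in the mutant. FSK in WT was different: 0 were higher and 3 lower (Cmss1, Lars2 and mt-Rnr1) where Cdk8 was 1.99 times CON. There 1.52% of kept genes were higher and 0.723% lower. In delta cells under FSK 7 were lower in WT, and in alpha cells 1 was higher. In these contrasts 4.79% of kept genes in delta and 2.51% in alpha cells were past the threshold in either direction. The list made up 3.26, 2.43 and 8.76% of the counts of WT CON, FSK and Ex-4 beta cells and 11.05, 2.45 and 14.1% of mutant CON, FSK and Ex-4. When columns were rescaled without the list, the log2 difference of Cdk8 in beta cells was 1.25 for Ex-4 in WT, 0.945 for FSK in WT, 2.25 for untreated mutant against WT and -1.64 for FSK in the mutant. The part of ribosomal RNA in the Cdk8 values, reads of it counted at the Cdk8 locus included, was not tested.

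The genes most like Cdk8 were sought by Pearson's r of the deposited log values over the 18 columns, among 8560 genes kept in all 3 types. Malat1, an abundant nuclear long noncoding RNA, came first (r = 0.93), then Srrt, which binds capped nuclear RNA, and the kinase Cdk11b (0.89 each), Zfpl1 and the RNA-binding protein Hnrnpa2b1 (0.88 each), Tle5, Nop56, Prrc2a, Gm19951 and Sptan1 (0.87 to 0.88). In beta cells Malat1 measured 315, 386 and 445 CP10K in WT CON, FSK and Ex-4 and 633, 460 and 604 in the mutant, and Cdk11b 1.18, 1.06 and 2.58, against 3.16, 1.22 and 2.83. Mutant CON was thus the highest column for both, as for Cdk8. Its own partners came later: Med12 was in place 504 (r = 0.71), Med13 1979 (0.46) and Cdk19 6923 (-0.46), with Ccnc, Med13l and Med12l between them. The columns share sublibraries and normalization, and with the 6 beta columns alone 0 of the 10 genes were among the first 10.

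For the other members the first genes in that order were Paxbp1, Bms1 and Hnrnpdl for Med12 (r = 0.96, 0.95 and 0.94) and Maob, Parva and Rapgef4 for Med12l (0.93 each). For Cdk19 they were Plcxd3 (0.95), Gramd3 (0.94) and Sgcd (0.92). Bms1 acts in ribosome assembly and Rapgef4 encodes the cAMP sensor Epac2. The values for Ccnc were lower, with 0.80 for Gm16279 as the highest, on the smallest counts of the module.

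Gene length went with the differences of the long partners Cdk19, Med12l and Med13l, and hardly with those of Med12 and Ccnc. Among kept genes in untreated mutant against WT beta cells, the median log2 difference was 0.11 for genes spanning under 10 kb, 0.05 for 10 to 30 kb, -0.04 for 30 to 100 kb, -0.18 for 100 to 200 kb and -0.37 above 200 kb. FSK in the mutant gave the reverse, from -0.12 under 10 kb to 0.33 above 200 kb. Med12 belongs to the second shortest class, and Med12l and Med13l to the longest. With the trend on length subtracted, Med12l stood at -0.25 instead of -0.59 in untreated mutant against WT and at 0.41 instead of 0.69 with FSK in the mutant, both short of the threshold. In untreated mutant against WT, Med13l stood at -0.06 instead of -0.32 and Cdk19 at -0.15 instead of -0.35. Med12 stood at 0.51 instead of 0.54, Ccnc at -0.11 instead of -0.10 and Cdk8 at 2.23 instead of 2.13.

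**Figure D5:**
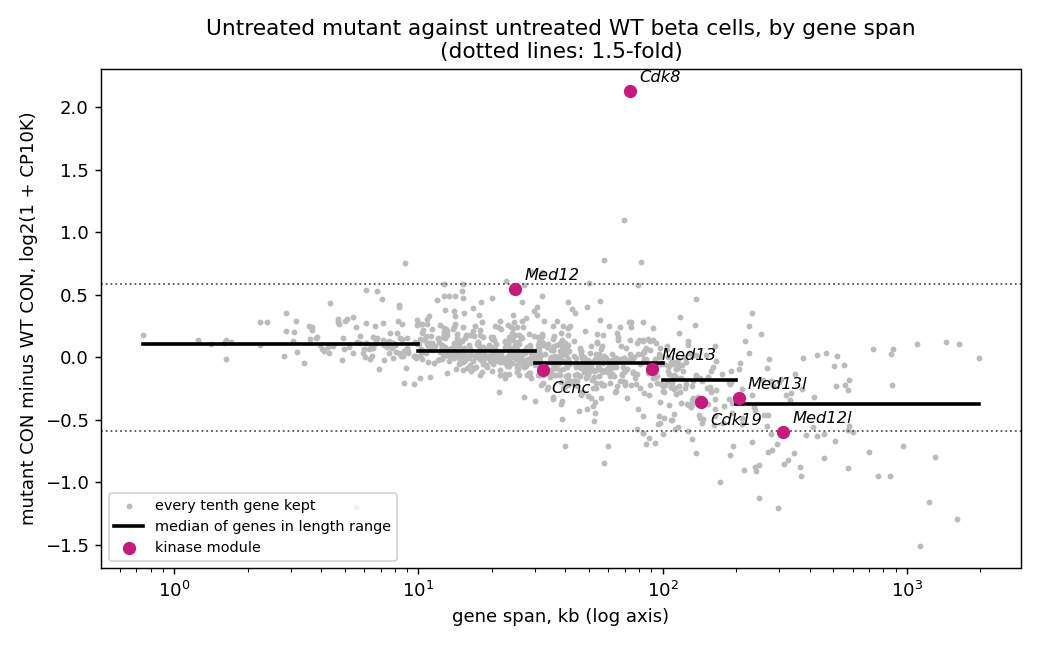
Untreated Med14 S983A minus untreated WT beta cells (vertical axis, difference of log2(1 + CP10K)) against gene span (horizontal axis, kb on a log scale), with a subset of the kept genes in grey, medians of length classes as bars and the 7 members in colour. The medians step from 0.11 for the shortest genes to -0.37 for the longest. Med13l lies near the long-gene median at -0.32, Med12l below it at -0.59, and Cdk8 lies at 2.13.

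The rest of Mediator and the other transcription kinases, from lists drawn up for comparison, had 0 members past the threshold in beta cells in any of the 5 contrasts. In single directions 0.00991 to 5.12% of all kept genes passed it, and a count of 0 in lists of this size is near that share. Of the 26 core Mediator subunits 17 were kept in beta, 15 in alpha and 14 in delta cells, with 0 higher and 0 lower in all 3. In untreated mutant against WT beta cells they ran from -0.39 (Med27, a head subunit) to 0.28 (Med25, a tail subunit), with a median of 0.02. Of the 11 other kinases, cyclins and regulators of RNA polymerase II, all 11 were kept in beta cells. Cdk12, which phosphorylates elongating polymerase, was 1.499 times as high in the untreated mutant (1.34 to 1.67, 0.43), and passed the threshold in delta cells, the only call of the list. Mnat1, the assembly factor of the Cdk7 complex, was 0.589 times as high (-0.38). Genes well under 1 CP10K could differ by more in ratio and stay short of the threshold. Cdk9, the kinase of the elongation factor P-TEFb, was 2.87 times as high in the untreated mutant (1.88 to 4.43), and Med16, a tail subunit, 2.58 times (1.74 to 3.87), while FSK in the mutant went with 0.165 times the Med16 (0.0858 to 0.295). Of the immediate early and interferon response genes, targets often tied to the Mediator kinases, 6 were kept in beta cells and 0 passed the threshold. Irf1, an interferon regulatory factor, was 2.65 times as high with Ex-4 in WT (1.94 to 3.65) and 2.54 times in untreated mutant against WT (1.81 to 3.58), and Irf9, part of the interferon-activated complex ISGF3, 2.54 times (1.63 to 4.06) and 2.32 times (1.42 to 3.85).

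The genes beside Cdk8 on chromosome 5 did not share its level. In untreated beta cells Rnf6 measured 0.266 CP10K in WT and 0.384 in mutant columns (log2 difference 0.13), Wasf3 0.385 and 0.312 (-0.08), and 1700001J03Rik was at 0 in both. Of the neighbours of the other members in the table, Pnisr, a serine and arginine rich nuclear protein encoded near Ccnc, passed the threshold. It measured 4.64, 2.76 and 8.50 CP10K in WT CON, FSK and Ex-4 and 8.68, 2.93 and 8.53 in the mutant, high in the same 3 columns as Med12. P2ry12, which lies within Med12l on the opposite strand, measured 0.362, 0.330 and 0.114 in WT, against 0.0883, 0.386 and 0.0836 in mutant columns, low in the 3 columns in which Med12l was low. Without strand in the counting, reads of the pair cannot be told apart.

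Med14, the mutated scaffold, had 0.478 CP10K in WT CON beta cells (0.403 to 0.563) and 0.384 in mutant CON (0.302 to 0.482), and its level does not check the genotype labels, since the mutation changes a residue. With FSK it measured 0.753 in WT and 0.716 in the mutant, and with Ex-4 0.463 and 0.444. The FSK columns were the highest in both genotypes, as for Cdk19.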

How the data were processed

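Cultured islets of WT and Med14 S983A mice were profiled by the authors with combinatorial barcoding of sorted nuclei. The authors aligned reads and assigned barcodes with split-pipe, removed nuclei with extreme counts or high mitochondrial reads, normalized and integrated them in Seurat (SCTransform, Harmony), named cell types from marker genes and downsampled. The genome build is mm39 per the labels. The deposited values are natural log values, ln(1 + CP10K), pooled over the nuclei of a condition and cell type. The sources used here do not say whether counts were corrected before pooling. Values converted back gave whole counts within 0.001 for 100% of values, and column totals were 1522 to 3094377; 0 columns belonged to other samples.

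From the deposited log values CP10K, counts and differences of log2(1 + CP10K) were computed (Python 3.11.15, pandas 2.3.3, scipy 1.17.1). Genes were kept in a cell type when their mean log value reached the 40th percentile of genes above 0. Intervals were exact at 95% (Poisson, Clopper-Pearson, conditional binomial for ratios) and cover counting error only. The threshold was 1.5-fold. With 1 column per condition and cell type no test was possible. Steps were tested on simulated data. Gene spans came from GENCODE M39, in which 16531 of 17362 genes had a single match by name, and promoters from RefSeq.

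Named were the 7 members, the genes most correlated with each, up to 2 protein-coding genes on either side, Med14 and the most different members of comparison lists. Members and lists were chosen with earlier results of these data known. Alternatives were pseudocounts of 0.1 and 0.01 on the linear scale, no filter, a 2-fold threshold, rescaling without ribosomal RNA linked and mitochondrial genes, median centring, and, chosen after seeing the data, removal of a lowess fit (span 0.3) of differences on gene span. Gm42418 and Gm26917 were not analysed here.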

Additional observations from a re-analysis of the deposited data

Results flagged for a closer look

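The Cdk8 difference between treated and untreated cells had opposite signs in WT and Med14 S983A cells in 6 of 6 cases, which is why these values are given again here. The count restates the untreated contrast by which Cdk8 was chosen: with WT CON lowest and mutant CON highest, opposite signs follow for any treated values between them. Each is a difference of log2(1 + CP10K) between single pooled columns, and the difference between genotypes was not tested. FSK against CON was 0.96 in WT and -1.50 in mutant beta cells, 1.74 and -0.92 in alpha cells, and 0.49 and -1.63 in delta cells. Ex-4 against CON was 1.17 in WT and -0.20 in mutant beta cells, 1.52 and -0.26 in alpha cells, and 1.12 and -0.45 in delta cells. The WT CON column is shared by both WT contrasts and the mutant CON column by both mutant contrasts. All 4 conditions with treatment lay between these untreated columns in each of the 3 cell types, which come from the same islet preparations.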

How the results depend on the processing

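No paired analysis was possible because each condition has 1 pooled column, and for the same reason no sample could be left out in turn. Counts of members past the threshold stayed within 1.5 times the reported count in beta, alpha and delta cells without the filter and with the median set to 0. A pseudocount of 0.1 gave 4 in place of 2 for untreated mutant against WT beta cells, 3 in place of 1 for FSK in WT and for untreated mutant against WT alpha cells, and among delta contrasts 3 with Ex-4 in WT, 1 in place of 0 for FSK in WT, 3 for untreated mutant against WT and 2 for FSK in the mutant. A pseudocount of 0.01 gave 5 for untreated mutant against WT and 5 in place of 3 for FSK in the mutant in beta cells. In alpha cells it gave 3, 3 and 2 for FSK in WT, untreated mutant against WT and FSK in the mutant, and in delta cells 3, 2, 4, 1 and 2 for the 5 contrasts in the order used above. The smaller pseudocounts admit low genes such as Cdk19 and Ccnc by construction.

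A 2-fold threshold left 1 member for Ex-4 in WT beta and alpha cells, 1 for untreated mutant against WT and for FSK in the mutant in beta cells, and 0 for FSK in WT beta cells and FSK in mutant alpha cells. Rescaling without ribosomal RNA linked and mitochondrial genes gave 2 in place of 1 for untreated mutant against WT alpha cells, and in beta cells exchanged Med12l for Med12 in that contrast. Subtracting the length trend left 1 for untreated mutant against WT and 1 for FSK in the mutant in beta cells, Cdk8 in both. Over all kept genes, untreated mutant against WT beta cells had 149 higher and 390 lower genes as reported, 1566 and 1595 with a pseudocount of 0.1, 2464 and 2166 with 0.01, 28 and 71 at 2-fold, 231 and 299 after rescaling, and 204 and 136 without the length trend. Of the 10 genes most like Cdk8, 0 were shared with the 6 beta columns alone and 10 after rescaling. Per kb of span, the Cdk8 share of the Cdk8 and Cdk19 pair in beta cells was 98.09% in WT CON, 98.58% with FSK, 99.45% with Ex-4, and 99.79%, 98.65% and 99.75% in mutant CON, FSK and Ex-4. No difference of a member changed sign past the threshold. Beyond these constructions the cause was not tested, and each contrast rests on single columns, some of them on few counts, such as ductal and neuron-labelled columns, and Ccnc and Cdk19 outside beta cells.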
